A study of Jatropha curcas with 22 samples.

Results

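DnaJ proteins, also called J-domain proteins or HSP40s, are co-chaperones of the HSP70 chaperones, and 32 gene models of Jatropha curcas carry "dnaj" in the description that the authors deposited with their read counts. They were chosen by that word alone, ignoring case, from 57437 gene models, of which 6147 had no read in any library. Of the 32, 31 had reads and 29 were abundant enough to be tested in at least 1 organ. RNA came from young leaves and root tips of potted seedlings of the Cape Verde islands strain, an oilseed shrub grown in a greenhouse, and the seedlings were 36 days old when treatments began. Rewatered plants (day 52), severely droughted plants (day 49 without water) and moderately droughted plants (day 13 without water) were set against well-watered plants, sampled at day 13 and under a joint day 49/52 label in both organs and also at day 0 in leaf. Each of the 11 groups held 2 libraries, 12 libraries from leaf and 10 from root in all. Plants were pooled before extraction, 6 to a library at days 0 and 49 and 3 at days 13 and 52, and for the day 49/52 controls the labels give no pool size. The rewatered libraries are labelled day 52, 3 days after day 49, while the treatment protocol gives 7 days of rewatering.

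Libraries held 37104762 to 82215677 counted reads. The 2 libraries of every group differed by more than counting error, with a chi-square per gene of 12.0 to 156.4. The labels do not say whether they come from separate plants, and the spread that p-values rest on may therefore be technical. In bulk tissue, fewer cells of a type and less RNA per cell cannot be told apart. The organ labels were checked against marker lists. The 48 photosynthesis genes of the leaf list summed to 13566 to 24162 CPM (counts scaled to the library total) in leaf libraries and 105.2 to 287.9 CPM in root libraries. The 13 genes of the root list were drawn from Casparian strip, root hair, scarecrow and nitrate transporter descriptions. They summed to 331.4 to 475.8 CPM in leaf and 628.7 to 1083 CPM in root. The root hair defective 6-like gene Jcr4S01938.10 had no read in any leaf library. Single markers did not all follow their list. In watered plants at day 13, edgeR (adjusted p under 0.05) called 38 of 47 tested leaf markers higher in leaf than in root and 1 lower. Of 13 root markers 9 were lower in leaf, 1 was higher and 3 were not called. Among all genes 29% were higher and 29.7% lower.

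A DnaJ protein binds an unfolded client and brings it to HSP70, and its J-domain, which holds a conserved histidine-proline-aspartate motif, stimulates HSP70 to split ATP and so to close on the client. Plants carry large J-domain families, with members in the cytosol, the chloroplast, the mitochondrion and the endoplasmic reticulum, and several are induced by heat, salt or water deficit. The descriptions name 2 "DnaJ protein homologs", the type that in other plants is a cytosolic protein with a farnesyl anchor, and 2 chloroplast DnaJ proteins. They also name 5 homologs of subfamily B and 2 of subfamily C, 6 other "chaperone protein DnaJ" genes, and 15 genes known by a domain or family name only.

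Levels per gene length were read from the RPKM values that the authors deposited (reads scaled to gene model length and library total), which were already normalized across libraries. Their lowest value was 1.0, which every gene without reads in a library had. Jcr4S01119.30, a DnaJ protein homolog, had the highest mean of the 32 genes, 181.2 RPKM over all libraries. It stood at 78.4 to 433.5 RPKM in leaf (median 97.6) and 143.6 to 439.8 RPKM in root (median 185.4). Jcr4S00367.110, known only as an N-terminal domain family gene, was next with 22.3 to 153.6 RPKM in leaf (median 49.95) and 58.6 to 212 RPKM in root (median 124.4). The second DnaJ protein homolog, Jcr4S19073.10, had 32.2 to 184.1 RPKM in leaf (median 42.2) and 60.7 to 206.7 RPKM in root (median 76.05). Jcr4S02652.60, the subfamily B member 11 homolog, whose human counterpart serves the HSP70 BiP in the lumen of the endoplasmic reticulum, had 51.3 to 187.9 RPKM in leaf (median 79.8) and 34.4 to 61.1 RPKM in root (median 44.75). The chloroplast DnaJ gene Jcr4S02020.10 had the widest range of these 5 genes in leaf, from 4.8 to 479.6 RPKM (median 8.25), while in root it stood at 29.1 to 88.6 RPKM (median 75.75). The ranges of neighbouring genes in this order overlapped. At the low end, Jcr4S00512.60, a C-terminal domain gene, had 0 to 23 reads per library. Jcr4U29175.10, a DnaJ 16-like gene, had at most 2 reads in a library and Jcr4U28813.10, named after psi1 of fission yeast, at most 3. Jcr4U29876.20, a DnaJ 49 gene, had no read in any library.

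**Figure D1:**
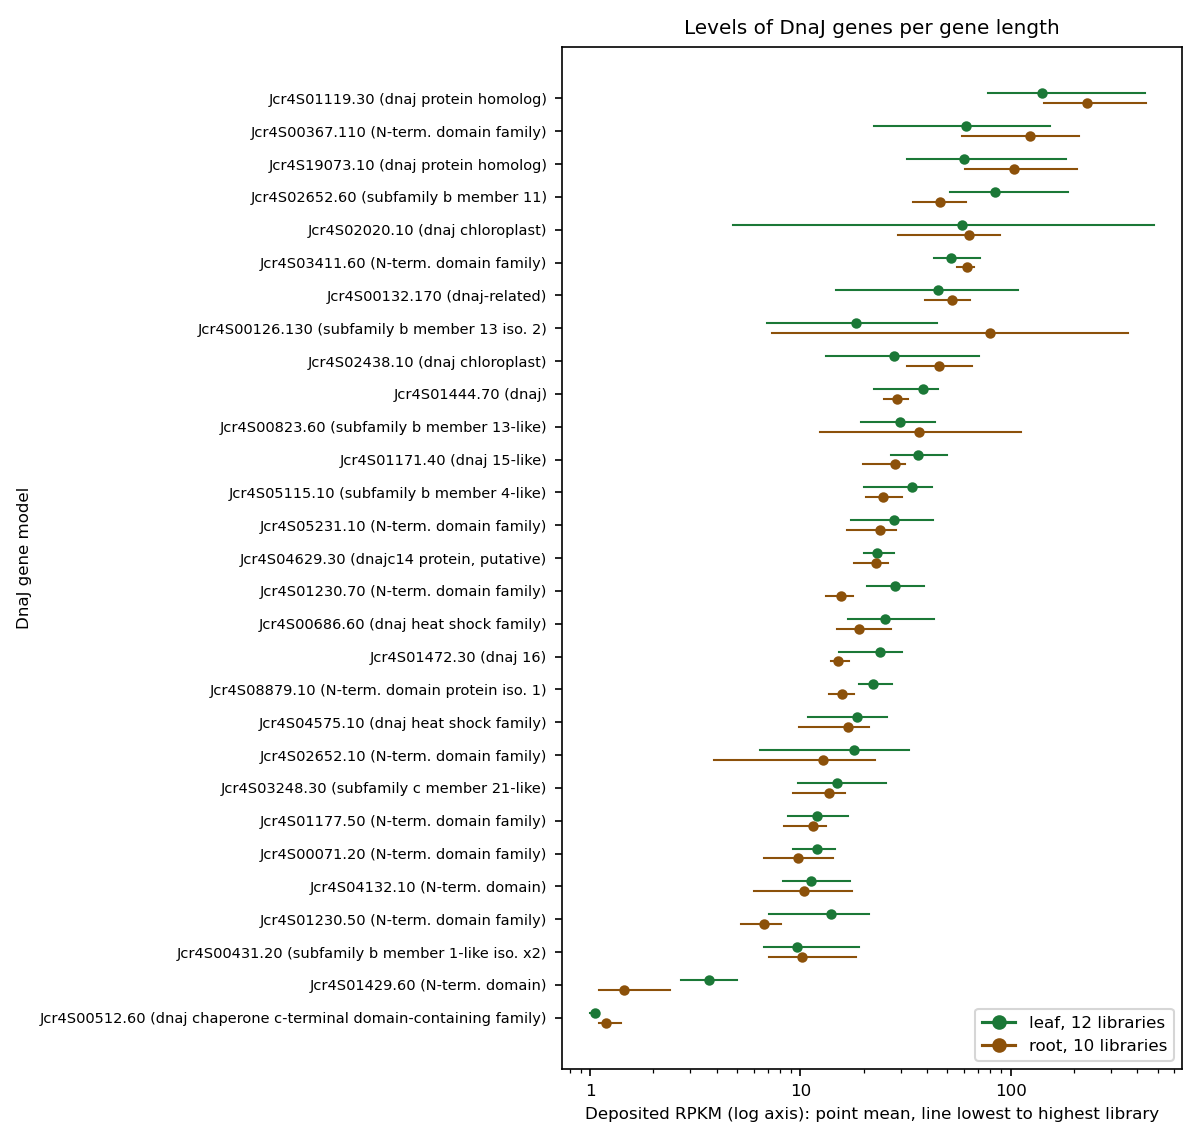
Deposited RPKM (log axis) of the 29 more abundant DnaJ genes, ordered by their mean over 22 libraries, with leaf in green and root in brown. Points are organ means and lines run from the lowest to the highest library. Jcr4S01119.30 is at the top, and the leaf line of Jcr4S02020.10 runs from 4.8 to 479.6 RPKM in leaf.

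The first question was which DnaJ genes changed in leaf when water was withheld for 49 days. Of 28 members tested, 10 were higher and 9 lower in severe drought than in the day 49/52 control, 67.9% in all, beside 57.1% of the 23200 genes tested in leaf (27.6% higher, 29.5% lower). Genes were called at a Benjamini-Hochberg adjusted p under 0.05 from edgeR's quasi-likelihood test, and the median log2 fold change was -0.04 for the members and 0.03 for all genes. Both chloroplast genes and both DnaJ protein homologs rose, whereas both subfamily C genes and 3 of the 4 tested genes of the "chaperone protein DnaJ" group were called lower. Neither subfamily C call held under every alternative, as 13 of the 19 leaf calls did. Jcr4S04629.30, a homolog of member 14 named here after its values were seen, had a log2 fold change of -0.28 (adjusted p = 0.0488), kept its call under 2 of 9 alternatives and stood at 0.09 against the day 13 control (adjusted p = 0.532). Jcr4S03248.30, a homolog of member 21, had -0.68 (adjusted p = 0.0139) and lost its call under 3 of 9, among them the day 13 control (-0.35, adjusted p = 0.168). Together the 32 genes took 0.168 ± 0.0259% of all reads in severe leaf and 0.121 ± 0.00488% in control leaf (SD, n = 2 each).

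The chloroplast gene Jcr4S02020.10 had 80.3 and 272 CPM in severe leaf, against 3.62 and 4.70 CPM in control leaf. The severe libraries lay far above every other leaf library, which had 2.40 to 5.95 CPM, although they also differed from each other. The log2 fold change was 5.39 ± 0.58 (SE), a 41.9-fold rise with an adjusted p of 4.77e-05. It was 4.24 without severe replicate 2 and 6.01 without severe replicate 1. The other chloroplast gene, Jcr4S02438.10, had 35.3 and 55.3 CPM in severe leaf, against 15.1 and 18.5 CPM in control leaf, a log2 fold change of 1.41 ± 0.23 (adjusted p = 4.93e-04).

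The DnaJ protein homolog Jcr4S01119.30 had 185 and 259 CPM in severe leaf, against 64.9 and 82.1 CPM in control leaf. The groups did not overlap, and the log2 fold change was 1.57 ± 0.22 (adjusted p = 1.46e-04). Its namesake Jcr4S19073.10 followed closely, with 159 and 219 CPM in severe leaf, against 56.7 and 72.0 CPM in control leaf (1.53 ± 0.22, adjusted p = 2.01e-04). No source used here says how reads that match several genes were counted, and the split of reads between these like-named genes is uncertain. Jcr4S00367.110 had 67.7 and 90.4 CPM in severe leaf, against 20.8 and 30.2 CPM in control leaf (1.61 ± 0.49, adjusted p = 0.0191). That call was lost without severe replicate 2 (1.38, adjusted p = 0.104) and without either control library (1.35 and 1.89, adjusted p = 0.145 and 0.0668 without control replicates 1 and 2), and against the day 13 control (1.23, adjusted p = 0.059). The N-terminal domain gene Jcr4S01429.60 stood at 7.49 and 7.19 CPM in severe leaf, against 3.01 and 3.88 CPM in control leaf (1.07 ± 0.19, adjusted p = 7.38e-04).

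Among the genes that fell in leaf, the N-terminal domain family gene Jcr4S02652.10 had 21.7 and 13.5 CPM in severe drought, against 64.2 and 47.7 CPM in the control. Its log2 fold change was -1.70 ± 0.30 (adjusted p = 8.16e-04), and -0.86 against the day 13 control. Jcr4S01230.50, of the same description, had 24.2 and 27.6 CPM in severe leaf, against 71.1 and 43.3 CPM in control leaf (-1.17 ± 0.21). Jcr4S04575.10, described as a DnaJ heat shock family gene, had 16.0 and 12.9 CPM in severe leaf, against 24.7 and 32.1 CPM in control leaf (-1.0 ± 0.16). The DnaJ 15-like gene Jcr4S01171.40, whose Arabidopsis counterpart ARG1 acts in root and shoot gravitropism, had 25.0 and 24.1 CPM in severe leaf, against 38.3 and 49.3 CPM in control leaf (-0.86 ± 0.15). It was not called against the day 13 control (-0.38, adjusted p = 0.0589). Jcr4S01444.70, described only as chaperone protein DnaJ, had 19.7 and 15.7 CPM in severe leaf, against 29.0 and 32.9 CPM in control leaf (-0.83 ± 0.14). Jcr4S01472.30, a DnaJ 16 gene, had 20.1 and 18.4 CPM in severe leaf, against 27.2 and 38.0 CPM in control leaf (-0.79 ± 0.16). These 6 genes were chosen as the largest called falls, and their adjusted p ran from 4.10e-04 to 0.00199. Among the root markers 7 of 11 tested were higher and 2 lower in severe leaf, and of the leaf markers 5 of 47 were higher and 12 lower. The leaf list summed to 14761 and 15749 CPM in severe leaf, against 17253 and 23922 CPM in control leaf, and the root list to 464.3 and 475.8 CPM against 400.9 and 379.7 CPM. Their part in the results was not tested.

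**Figure D2:**
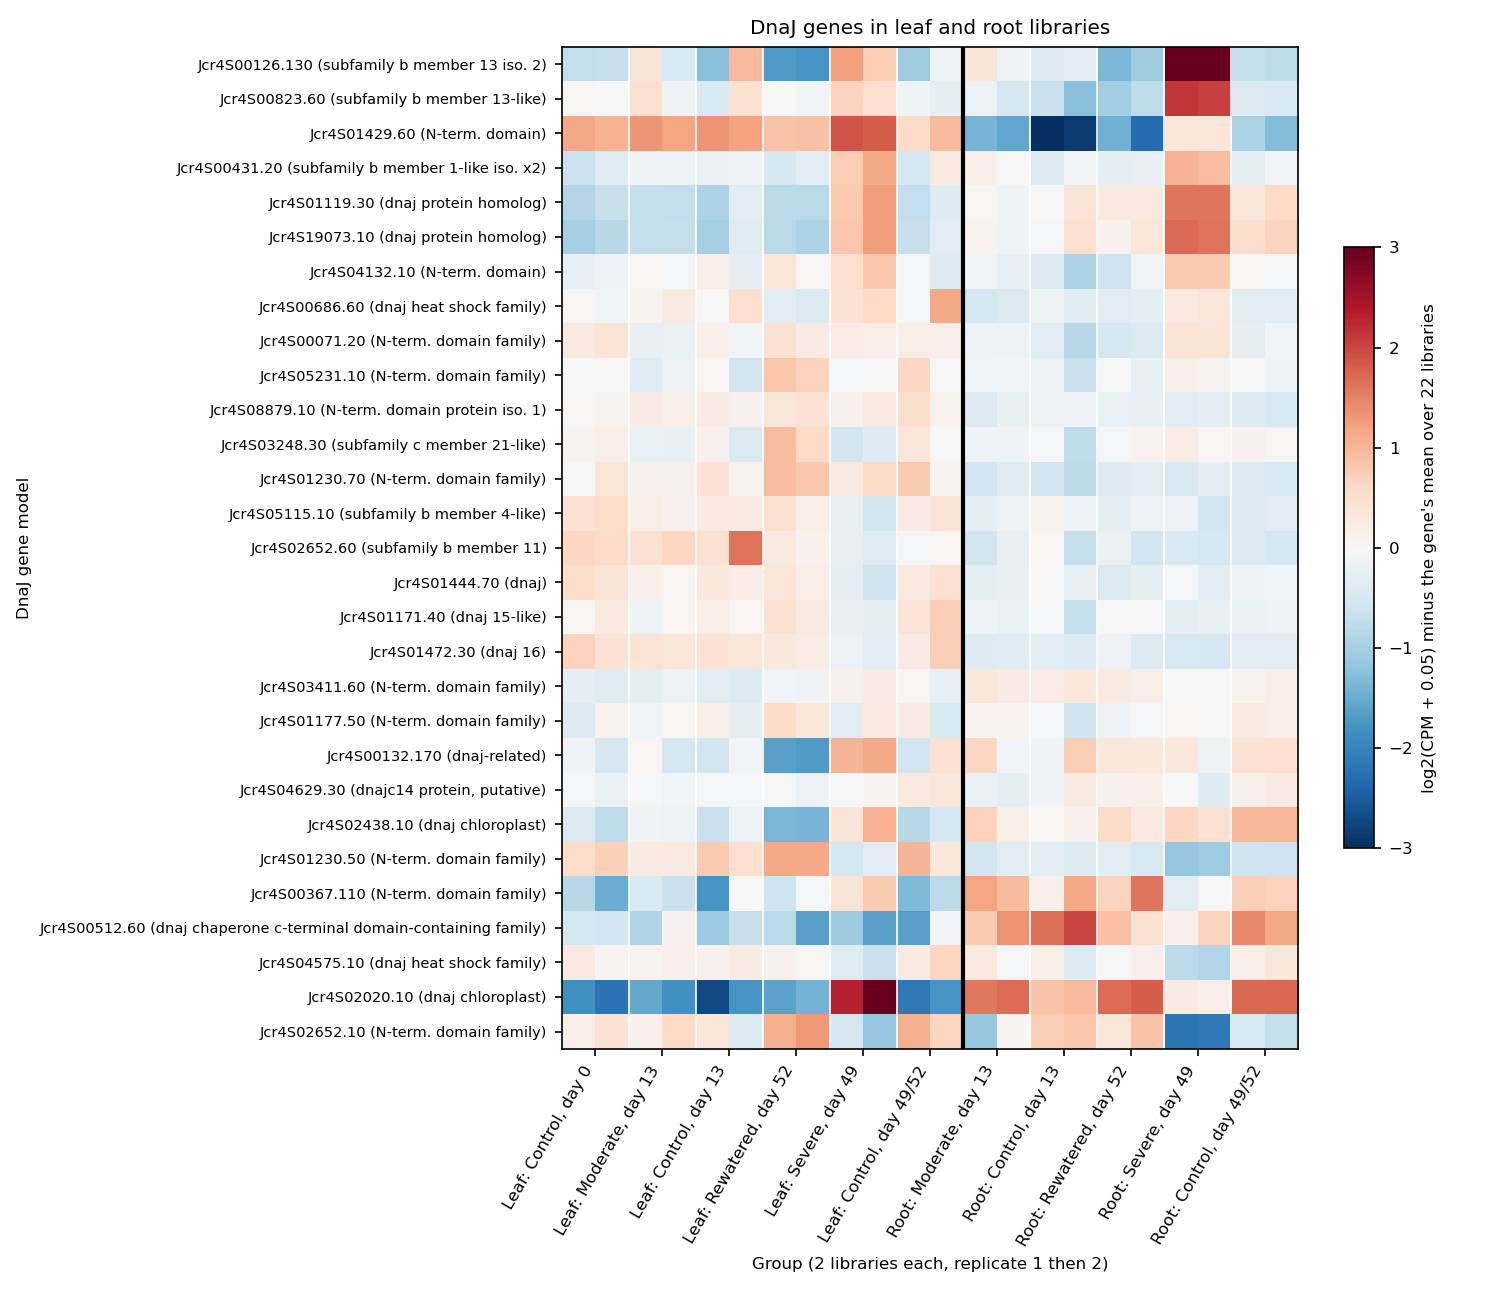
Level of the 29 tested DnaJ genes (rows) in the 22 libraries (columns, 2 per group, leaf left of the black line), as log2(CPM + 0.05) minus the gene's own mean, with red above and blue below that mean. Colours stop at 3 in either direction. Rows run from the highest to the lowest root change in severe drought, and the severe columns stand apart at the top rows and, for Jcr4S02020.10, in leaf.

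In root, 9 of 29 tested members were higher and 4 lower in severe drought than in the day 49/52 control, 44.8% in all, beside 45.1% of the 24924 genes tested in root (19.5% higher, 25.6% lower). The median log2 fold change was -0.06 for the members and -0.04 for all genes. Those that rose were 3 subfamily B genes, both DnaJ protein homologs and 4 genes named by domain or family, and the 4 tested "chaperone protein DnaJ" genes and both subfamily C genes were not called. The day 49/52 root controls had reads in 40952 and 38267 genes, above the 31702 to 36477 genes of every other root library, and the part of this in the results was not tested. Against the day 13 control 9 members were higher and 5 lower, 48.3% beside 54.5% of all genes. The reads of the 32 genes made up 0.194 ± 0.00636% of the total in severe root and 0.133 ± 0.000527% in control root (SD, n = 2 each).

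Jcr4S00126.130, a homolog of subfamily B member 13, had 586 and 477 CPM in severe root, against 15.1 and 14.8 CPM in control root. In humans DNAJB13 is known from sperm flagella and cilia, so the name gives the family and not a role in the plant. The log2 fold change was 5.10 ± 0.24, 34.4-fold, with an adjusted p of 2.67e-05, and no other root library exceeded 32.6 CPM. In leaf this gene had 59.1 and 42.5 CPM in severe drought, against 11.9 and 22.8 CPM in the control, which did not pass the test (1.53 ± 0.60, adjusted p = 0.0526). It was called higher with DESeq2 (1.53, adjusted p = 0.048), with the replicate block (1.59, adjusted p = 0.0435) and with no filter on low counts (1.51). Its day 13 leaf controls stood at 10.4 and 48.7 CPM. The other member 13 homolog, Jcr4S00823.60, had 167 and 156 CPM in severe root, against 28.4 and 27.6 CPM in control root (2.48 ± 0.23, adjusted p = 2.14e-04).

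Further down, Jcr4S01429.60 had 2.61 and 2.60 CPM in severe root, against 1.01 and 0.785 CPM in control root (1.48 ± 0.36, adjusted p = 0.0124). Its call was lost without severe replicate 2 and without either control library (1.31 to 1.67, adjusted p from 0.0504 to 0.0925), and against the day 13 control the value was 3.60 (adjusted p = 3.13e-04). Jcr4S00431.20 resembles subfamily B member 1, which in humans is the classical heat-inducible HSP40. It had 15.2 and 13.9 CPM in severe root, against 6.05 and 6.84 CPM in control root (1.12 ± 0.17, adjusted p = 0.00188). The DnaJ protein homolog Jcr4S01119.30 had 327 and 331 CPM in severe root, against 137 and 163 CPM in control root (1.08 ± 0.17, adjusted p = 0.00178). Jcr4S19073.10 had 295 and 281 CPM in severe root, against 131 and 146 CPM in control root (1.01 ± 0.20, adjusted p = 0.0049).

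The 4 genes that fell in root included Jcr4S02020.10, the chloroplast gene that rose in leaf. It had 18.9 and 17.8 CPM in severe root, against 53.4 and 52.9 CPM in control root (-1.58 ± 0.12, adjusted p = 1.33e-04), and -0.75 against the day 13 control. Jcr4S02652.10 had 6.77 and 6.83 CPM in severe root, against 21.9 and 18.5 CPM in control root (-1.62 ± 0.36, adjusted p = 0.00889). Leaving out severe replicate 1 or 2 gave -1.55 or -1.63 (adjusted p = 0.0581 and 0.0522), and the value against the day 13 control was -2.98 (adjusted p = 4.88e-04). Jcr4S04575.10 had 12.0 and 11.2 CPM in severe root, against 23.6 and 26.1 CPM in control root (-1.15 ± 0.22, adjusted p = 0.00455). Jcr4S01230.50 had 15.7 and 16.7 CPM in severe root, against 23.02 and 22.9 CPM in control root (-0.55 ± 0.14, adjusted p = 0.0131), and lost its call without any 1 of the 4 libraries (-0.60 to -0.45, adjusted p from 0.0543 to 0.116). Leaving out any 1 of the 4 libraries lowered the count of members called, and also the share of all genes called. The leaf markers were higher at 14 and lower at 2 of 39 tested in severe root, summing to 189.2 and 232.3 CPM against 111.8 and 151.4 CPM, and the photosystem I gene Jcr4U30584.10 was at 0 in both groups. Of 13 root markers 3 were higher and 5 lower, summing to 633.7 and 628.7 CPM in severe root and 725.8 and 761.0 CPM in control root. Their part in the results was not tested.

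**Figure D3:**
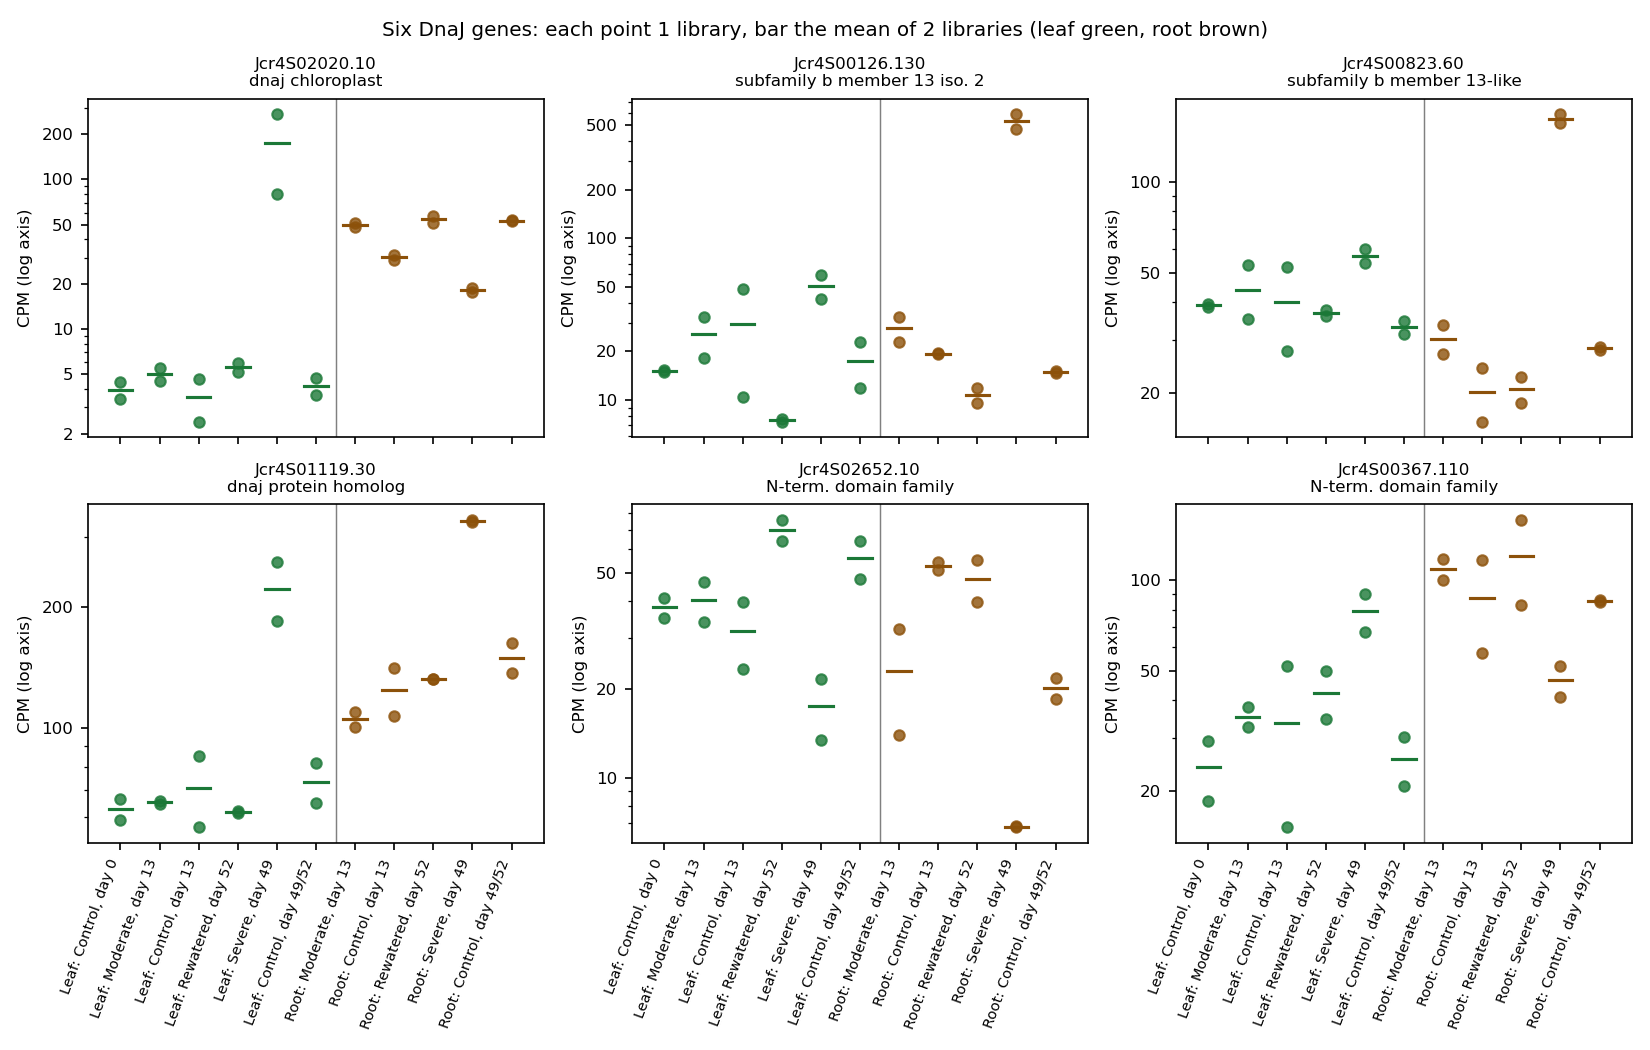
CPM (log axis) of 6 DnaJ genes in each library, leaf in green and root in brown. Points are libraries and bars the means of 2. Jcr4S02020.10 is at 80.3 and 272 CPM in severe leaf and at 18.9 and 17.8 CPM in severe root, while Jcr4S00126.130 reaches 586 and 477 CPM in severe root.

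Leaf and root shared no library in these comparisons, so the calls can be set side by side. Of the 28 members tested in both organs, 6 were higher in severe drought in both, which is 60% of those higher in leaf and 66.7% of those higher in root. Over all genes tested in both organs, the same shares were 39% and 51.5%. The 6 were both DnaJ protein homologs, Jcr4S00431.20, Jcr4S00823.60 and the N-terminal domain genes Jcr4S01429.60 and Jcr4S04132.10. In leaf Jcr4S00431.20 had 12.5 and 16.1 CPM in severe drought, against 5.02 and 8.94 CPM in the control (1.01 ± 0.26). Jcr4S04132.10 had 36.6 and 44.9 CPM in severe leaf, against 24.7 and 19.7 CPM in control leaf (0.85 ± 0.19), and 44.6 and 44.5 CPM in severe root, against 26.6 and 25.0 CPM in control root (0.74 ± 0.22). Its root call was lost without any 1 of the 4 libraries, with an adjusted p of up to 0.141. Jcr4S00823.60 had 60.1 and 53.8 CPM in severe leaf, against 34.5 and 31.4 CPM in control leaf (0.76 ± 0.26, adjusted p = 0.0261). That leaf call too was lost without any 1 of the 4 libraries, and against the day 13 control, with an adjusted p of up to 0.129.

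Another 3 members, Jcr4S01230.50, Jcr4S02652.10 and Jcr4S04575.10, were lower in both organs, 33.3% of those lower in leaf and 75% of those lower in root, beside 40.4% and 51% over all genes. Jcr4S02020.10 was the 1 member called in opposite directions, and 6 of the 28 were called in neither organ. Those 6 included the endoplasmic reticulum type Jcr4S02652.60, which had 76.7 and 70.3 CPM in severe leaf, against 89.4 and 94.9 CPM in control leaf (-0.35 ± 0.28, adjusted p = 0.297), although against the day 13 leaf controls of 125 and 280 CPM it was called lower (-1.47, adjusted p = 0.00141). In root it had 66.6 and 63.1 CPM in severe drought, against 68.2 and 62.9 CPM in the control (-0.06 ± 0.26, adjusted p = 0.855).

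**Figure D4:**
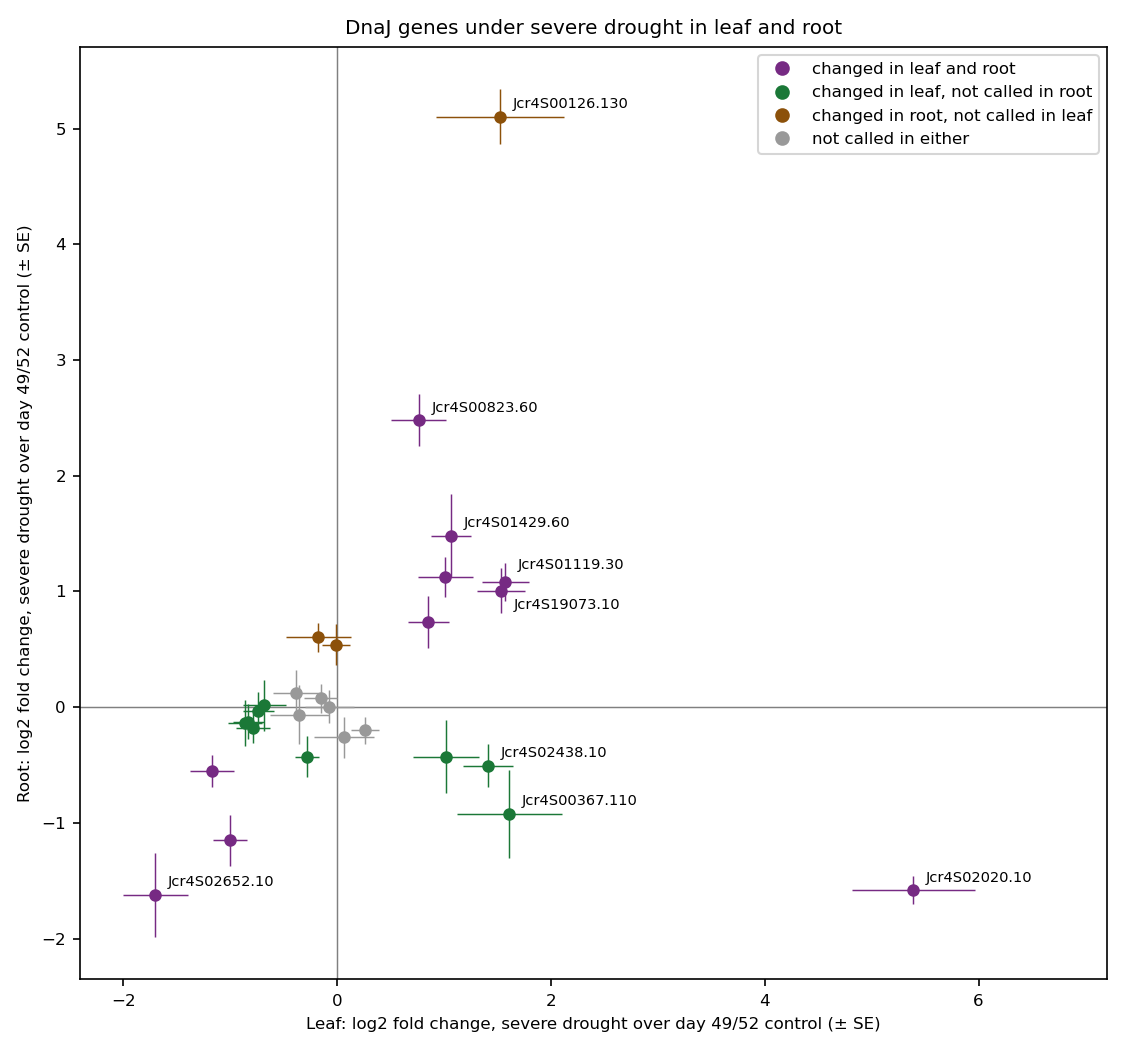
Log2 fold change of 28 DnaJ genes in severe drought over the day 49/52 control, leaf on the x axis and root on the y axis, with SE bars. Colours give the calls in each organ. Jcr4S02020.10 lies at 5.39 in leaf and -1.58 in root, Jcr4S00126.130 at 1.53 and 5.10.

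The difference between the organs was tested as leaf change minus root change in 1 fit over all libraries. Of 29 members tested, 4 were called with a positive difference and 7 with a negative one, 37.9% in all, beside 35.7% of 25939 genes (17.1% positive, 18.6% negative). With RLE size factors the split was 5 positive and 4 negative, and with DESeq2 5 positive and 6 negative. Jcr4S02020.10 had the largest difference among the members, 6.94 ± 0.61 on the log2 scale (adjusted p = 1.12e-06), which was 5.83 without severe leaf replicate 2 and 7.56 without severe leaf replicate 1. Jcr4S00367.110 had a difference of 2.50 ± 0.68 (adjusted p = 0.0107). In root it had 41.1 and 52.2 CPM in severe drought, against 86.3 and 84.5 CPM in the control, a change of -0.92 ± 0.38 that was not called by edgeR (adjusted p = 0.0822) and was called lower by DESeq2 (-0.92, adjusted p = 0.0429). The second chloroplast gene, Jcr4S02438.10, differed by 1.89 ± 0.32 (adjusted p = 3.38e-04), with 41.4 and 36.9 CPM in severe root, against 53.5 and 54.0 CPM in control root (-0.51 ± 0.19, not called by edgeR with an adjusted p of 0.0582, called lower by DESeq2 with an adjusted p of 0.0393). Both homologs of member 13 had negative differences, -3.60 ± 0.72 for Jcr4S00126.130 (adjusted p = 0.0014) and -1.74 ± 0.37 for Jcr4S00823.60 (adjusted p = 0.00191). Jcr4S01171.40, the DnaJ 15-like gene, differed by -0.74 ± 0.25 (adjusted p = 0.0315), with 24.3 and 25.2 CPM in severe root, against 25.6 and 27.2 CPM in control root. That difference was not called with RLE size factors (-0.67), with no filter on low counts (-0.72) or without any 1 of 7 of the 8 libraries concerned (-0.80 to -0.56, adjusted p from 0.0565 to 0.138), control leaf replicate 1 being the exception. The 2 DnaJ protein homologs did not pass this test, with differences of 0.46 ± 0.29 for Jcr4S01119.30 and 0.50 ± 0.31 for Jcr4S19073.10.

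Rewatering was compared with severe drought and with the day 49/52 control, and both comparisons share libraries with the severe drought comparison, so their values are given side by side only. In leaf, 9 of 28 members were higher and 9 lower after rewatering than in severe drought, 64.3% beside 59.3% of all genes (29.1% higher, 30.2% lower). In the same comparison the root markers were lower at 7 and higher at 1 of 11 tested (summing to 408.1 and 388.6 CPM in rewatered leaf and 464.3 and 475.8 CPM in severe leaf). The leaf markers were lower at 15 and higher at 4 of 47 (13886 and 13566 CPM in rewatered leaf, 14761 and 15749 CPM in severe leaf), and the part of either list in the results was not tested. Jcr4S02020.10 was back at 5.204 and 5.95 CPM in rewatered leaf, against 80.3 and 272 CPM in severe leaf (-4.94 ± 0.56, adjusted p = 6.39e-05). This was -3.79 without severe replicate 2 and -5.54 without severe replicate 1. Jcr4S00132.170, a DnaJ-related gene, had 5.74 and 5.501 CPM in rewatered leaf, against 36.7 and 39.5 CPM in severe leaf (-2.71 ± 0.33, adjusted p = 5.90e-05). Jcr4S00126.130 had 7.68 and 7.34 CPM in rewatered leaf, against 59.1 and 42.5 CPM in severe leaf (-2.71 ± 0.63, adjusted p = 0.00462). In the other direction, Jcr4S02652.10 had 64.1 and 75.7 CPM in rewatered leaf, against 21.7 and 13.5 CPM in severe leaf (2.04 ± 0.31, adjusted p = 2.41e-04). Jcr4S01230.50 had 77.4 and 77.0 CPM in rewatered leaf, against 24.2 and 27.6 CPM in severe leaf (1.62 ± 0.21, adjusted p = 8.62e-05). Jcr4S03248.30 is a homolog of subfamily C member 21, which in humans acts in the making of the large ribosomal subunit, and had 58.6 and 46.6 CPM in rewatered leaf, against 21.1 and 23.5 CPM in severe leaf (1.28 ± 0.20, adjusted p = 3.20e-04).

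Against the watered control, 1 of 28 members was lower and none higher in rewatered leaf, beside 4.56% of all genes (0.772% higher, 3.79% lower). That gene was Jcr4S00132.170, with 5.74 and 5.501 CPM in rewatered leaf, against 12.1 and 24.9 CPM in control leaf (-1.69 ± 0.32, adjusted p = 0.0203). The groups did not overlap, but the 2 control libraries lay far apart. The value was -1.08 without control replicate 2 (adjusted p = 0.111), and the call was also lost without rewatered replicate 1 (-1.69, adjusted p = 0.178) or 2 (-1.69, adjusted p = 0.188). More members were called without control replicate 1, and more of all genes as well.

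In root, 5 of 29 members were higher and 9 lower after rewatering than in severe drought, 48.3% beside 49.4% of all genes (27.4% higher, 22% lower). Leaf markers were lower at 21 and higher at 2 of 39 tested (summing to 143.4 and 105.2 CPM in rewatered root and 189.2 and 232.3 CPM in severe root). Root markers were higher at 8 and lower at 3 of 13 (929.3 and 1083 CPM in rewatered root, 633.7 and 628.7 CPM in severe root), and the part of either list in the results was not tested. Jcr4S00126.130 had 9.62 and 12.0 CPM in rewatered root, against 586 and 477 CPM in severe root (-5.54 ± 0.24, adjusted p = 1.87e-05). Jcr4S00823.60 had 18.5 and 22.6 CPM in rewatered root, against 167 and 156 CPM in severe root (-2.90 ± 0.23, adjusted p = 9.98e-05). Jcr4S01429.60 had 0.703 and 0.363 CPM in rewatered root, against 2.61 and 2.60 CPM in severe root (-2.22 ± 0.37, adjusted p = 0.0021). Of the genes that were higher, Jcr4S02652.10 had 39.6 and 55.2 CPM in rewatered root, against 6.77 and 6.83 CPM in severe root (2.88 ± 0.38, adjusted p = 6.78e-04). Jcr4S02020.10 had 51.4 and 57.0 CPM in rewatered root, against 18.9 and 17.8 CPM in severe root (1.64 ± 0.12, adjusted p = 8.54e-05). Jcr4S00367.110 had 83.02 and 159 CPM in rewatered root, against 41.1 and 52.2 CPM in severe root (1.45 ± 0.38, adjusted p = 0.0155). That last call was lost without rewatered replicate 2 (0.82, adjusted p = 0.125) and without severe replicate 1 or 2 (1.21 and 1.64, adjusted p = 0.109 and 0.0503). Fewer members were higher without severe replicate 2 or rewatered replicate 2, and a smaller share of all genes was called.

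Against the watered control, 1 of 29 members was higher and none lower in rewatered root, beside 17% of all genes (8.53% higher, 8.44% lower). Jcr4S02652.10 had 39.6 and 55.2 CPM in rewatered root, against 21.9 and 18.5 CPM in control root (1.26 ± 0.35, adjusted p = 0.048). The call was lost under 7 of 9 alternatives, among them leaving out any 1 of the 4 libraries (0.97 to 1.49, adjusted p from 0.0576 to 0.24), and the direction turned against the day 13 control (-0.11, adjusted p = 0.889), where the gene stood at 50.8 and 54.4 CPM.

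After 13 days without water, edgeR and DESeq2 called no member in leaf among 28 tested. Of all genes, edgeR called 0.00431% and DESeq2 1.23%. None of the 28 members had an unadjusted p under 0.05, beside 2007 of the 23200 genes tested. In root 1 of 29 was higher and none lower, beside 2.74% of all genes (1.98% higher, 0.754% lower). It was the chloroplast gene Jcr4S02020.10, with 47.8 and 51.3 CPM in moderate drought, against 29.2 and 31.5 CPM in the day 13 control (0.74 ± 0.12, adjusted p = 0.0336). Leaving out control replicate 2, moderate replicate 1 or moderate replicate 2 ended the call (0.69 to 0.79, adjusted p from 0.0647 to 0.169). More members were higher without control replicate 1, and more of all genes were called. Leaving out moderate replicate 2 gave -1.88 for Jcr4S02652.10, against -1.16 with all libraries.

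The watered controls of day 49/52 were also compared with those of day 13. No pool size is given for the later controls, and the part of time itself was not tested. In leaf no member was called by edgeR between the day 49/52 and the day 13 controls, beside 0.513% of all genes (0.25% higher, 0.263% lower). An unadjusted p under 0.05 was found in 6 of 28 members, beside 4348 of the 23200 genes tested. DESeq2 called 1 member higher and 1 lower, beside 6.67% of all genes. In root 4 of 29 were higher and 1 lower in the later control, 17.2% beside 30.9% of all genes (15.6% higher, 15.3% lower). Jcr4S01429.60 had 1.01 and 0.785 CPM in the later root control, against 0.190 and 0.229 CPM in the earlier (2.11 ± 0.41, adjusted p = 0.00949). Jcr4S02438.10 had 53.5 and 54.0 CPM in the later root control, against 27.4 and 29.6 CPM in the earlier (0.93 ± 0.19, adjusted p = 0.011). Jcr4S02020.10 had 53.4 and 52.9 CPM in the later root control, against 29.2 and 31.5 CPM in the earlier (0.83 ± 0.12, adjusted p = 0.00507). Jcr4S02652.10 was the 1 lower gene, with 21.9 and 18.5 CPM in the later root control, against 50.8 and 54.4 CPM in the earlier (-1.36 ± 0.35, adjusted p = 0.0247). Without later control replicate 1 the calls of Jcr4S01429.60 (1.92, adjusted p = 0.0511) and Jcr4S02438.10 (0.94, adjusted p = 0.0524) were lost, the call of Jcr4S02438.10 was also lost without later control replicate 2 (0.92, adjusted p = 0.067), and that of Jcr4S02652.10 was lost without any 1 of the 4 libraries (-1.49 to -1.25, adjusted p from 0.0536 to 0.139). More members were higher without earlier control replicate 1, and fewer without later control replicate 1 or 2. The share of all genes called moved the same way.

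Between the organs of watered plants at day 13, 10 of 29 members were higher and 6 lower in leaf than in root, 55.2% beside 58.7% of all genes (29% higher, 29.7% lower). With RLE size factors the split was 7 higher and 7 lower, and with DESeq2 8 and 8. Jcr4S01429.60 had 5.14 and 4.72 CPM in leaf, against 0.190 and 0.229 CPM in root (4.56 ± 0.31, adjusted p = 1.15e-08). Jcr4S02652.60 had 125 and 280 CPM in leaf, against 94.6 and 55.5 CPM in root (1.43 ± 0.29, adjusted p = 6.40e-04), and 0.74 without leaf replicate 2. Jcr4S01230.50 and Jcr4S01230.70 followed with log2 fold changes of 1.01 ± 0.18 and 0.95 ± 0.20, and the DnaJ 16 gene Jcr4S01472.30 with 0.75 ± 0.15. Jcr4S00823.60 was 0.99 ± 0.26 higher in leaf, a call lost without leaf replicate 2 (0.46) or root replicate 2 (0.68). In the other direction, Jcr4S02020.10 had 2.40 and 4.65 CPM in leaf, against 29.2 and 31.5 CPM in root (-3.10 ± 0.43, adjusted p = 2.00e-05). The sparsely read Jcr4S00512.60 had 0.0225 and 0.0463 CPM in leaf, against 0.437 and 0.573 CPM in root (-3.78 ± 0.93, adjusted p = 0.00266). Jcr4S00367.110 had 15.2 and 52.0 CPM in leaf, against 57.7 and 117 CPM in root (-1.37 ± 0.48, adjusted p = 0.0245), with the call lost without leaf replicate 1 (-0.74) or root replicate 2 (-0.84) and a value of -2.52 without leaf replicate 2. The DnaJ protein homologs Jcr4S19073.10 and Jcr4S01119.30 were lower in leaf by log2 values of -0.88 ± 0.22 and -0.81 ± 0.20, and both calls were lost without leaf replicate 1 (-0.59 and -0.54). Jcr4S03411.60, an N-terminal domain family gene, was lower by -0.63 ± 0.12. Fewer members were higher without root replicate 2, and a smaller share of all genes was called.

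The partners of DnaJ proteins were counted in the same severe drought comparisons, in which 57.1% of all genes were called in leaf and 45.1% in root. The counts were also taken against the day 13 control, an alternative chosen after seeing the data, where 51.2% of all genes were called in leaf and 54.5% in root. HSP70 genes were lower at 8 and higher at 1 of 18 tested in severe leaf, with a median log2 fold change of -0.46, whereas in severe root 6 of 19 were higher and none lower (median 0.33). The shares called, 50% in leaf and 31.6% in root, were below those of all genes, and against the day 13 control 10 were lower and 2 higher in leaf (66.7%) and 9 higher and 1 lower in root (52.6%). The stromal HSP70 gene Jcr4S01939.40 averaged 4.19 ± 0.00477 CPM in severe leaf and 0.505 ± 0.0310 CPM in control leaf, and 165 ± 45.1 CPM in severe root and 4.20 ± 1.32 CPM in control root (SD, n = 2 each). Jcr4S01168.40, a mitochondrial HSP70, averaged 5.35 ± 1.51 CPM in severe leaf and 35.3 ± 7.22 CPM in control leaf. The HSP70 cognate gene Jcr4S07929.20 averaged 237 ± 57.4 CPM in severe root and 6.86 ± 0.989 CPM in control root. The leaf change was below the root change, by the test of the difference, in 7 of 19 HSP70 genes and above it in none, 36.8% beside 35.7% of all genes called in that test.

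Co-factors of HSP70 (among them GrpE, BAG, HSP70-binding and HSP70-interacting protein 1 descriptions) were lower at 7 and higher at 1 of 13 tested in severe leaf. In severe root 3 of 12 were higher and 1 lower. That is 61.5% called in leaf and 33.3% in root, beside 57.1% and 45.1% of all genes. The root median was 0.50. Against the day 13 control 5 were higher and 3 lower in root (median 0.20), 66.7% called beside 54.5% of all genes. The day 49/52 root control was itself below the day 13 root control in 2 of 12 co-factors and above it in none (median -0.45). That is 16.7% called beside 30.9% of all genes. Jcr4S00874.10, an athanogene 3 BAG gene, averaged 9.82 ± 2.83 CPM in severe leaf and 377 ± 134 CPM in control leaf (log2 fold change -5.29 ± 0.35). The sparsely read GrpE gene Jcr4U31049.10 averaged 0.124 ± 0.0226 CPM in severe leaf and 0.426 ± 0.245 CPM in control leaf (-1.78 ± 0.66, adjusted p = 0.0406). In root Jcr4S00118.20, a BAG family regulator, averaged 358 ± 55.9 CPM in severe drought and 4.05 ± 0.0518 CPM in the control (6.41 ± 0.57), and the HSP70-binding gene Jcr4S01905.70 rose by 3.27 ± 0.31. With the day 49/52 control in both organs, 9 of 13 co-factors had a leaf change below the root change and none above it. That is 69.2% beside 35.7% of all genes. The 12 tested genes described as HSP70-interacting split 5 higher and 2 lower in leaf, led by Jcr4S10878.10 (1.65 ± 0.24) and Jcr4S03584.40 (1.48 ± 0.17), and 6 higher and 1 lower in root, led by Jcr4S00409.80 (2.02 ± 0.23) and Jcr4S03584.40 (1.40 ± 0.21). That is 58.3% called in each organ, and 8 were higher and none lower in root against the day 13 control.

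Small heat shock proteins, which hold unfolded proteins for HSP70 and its DnaJ partners, were higher at 12 and lower at 4 of 32 tested in severe leaf. That is 50% called beside 57.1% of all genes, and the list's median was 1.46, or 0.28 against the day 13 control. In severe root 25 of 35 were higher and 3 lower, 80% called beside 45.1% of all genes. The list's median was 6.76, or 6.72 with the 1 gene at 0 in a group set to its bound of 3 reads per library. Jcr4S04325.10 and Jcr4S11638.20 led in leaf, with log2 fold changes of 6.12 ± 1.03 and 5.49 ± 0.67. Jcr4S04325.10 averaged 12.0 ± 5.22 CPM in severe leaf and 0.167 ± 0.0321 CPM in control leaf. Jcr4S11638.20 averaged 501 ± 102 CPM in severe leaf and 10.9 ± 0.411 CPM in control leaf. Jcr4S01511.10 averaged 1038 ± 114 CPM in severe root and 0.570 ± 0.0127 CPM in control root, and Jcr4S02800.20 averaged 177 ± 25.9 CPM in severe root and 0.0748 ± 0.0529 CPM in control root. The leaf change was below the root change in 25 of 35 genes and above it in 1, 74.3% called beside 35.7% of all genes.

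Chaperonins, the ring-shaped folding machines, were lower at 14 and higher at 1 of 17 tested in severe leaf (median -0.77, 88.2% called beside 57.1% of all genes). In severe root 12 were higher and none lower (median 0.80, 70.6% called beside 45.1% of all genes). The day 49/52 root control was itself below the day 13 root control in 14 of these 17 genes and above it in 1 (median -0.63). Against the day 13 control 6 were higher and 3 lower in severe root, with a median of 0.30, and 12 were lower and 1 higher in severe leaf. The chaperonin 10 gene Jcr4S00059.140 changed by -2.03 ± 0.27 in leaf and Jcr4S00940.30, a GroES chaperonin, by -1.74 ± 0.39, while Jcr4S02414.50, a chaperonin 60, and Jcr4S02314.20, a chaperonin 20, rose in root by 3.24 ± 0.21 and 2.23 ± 0.27. Of 17 genes 16 had a leaf change below the root change, with the day 49/52 control in both organs. That is 94.1% called in the test of the difference, beside 35.7% of all genes. The Clp list held 7 genes described as Clp ATP-binding subunits, which unfold proteins or feed a protease, and 2 described only by a double Clp-N motif. All 7 subunit genes were higher in severe leaf, led by Jcr4S08769.20 (2.72 ± 0.43), and both motif genes were lower, among them Jcr4S03032.40 (-1.54 ± 0.18). In root 1 subunit gene was higher, Jcr4S00322.30 (0.82 ± 0.29), and 1 motif gene lower, Jcr4S03032.40 (-1.86 ± 0.21). Of the whole list 100% was called in leaf and 22.2% in root, beside 57.1% and 45.1% of all genes. Against the day 13 control 4 of the 7 subunit genes were higher in leaf and 6 in root. Both motif genes were then lower in leaf, while in root 1 was higher and 1 lower. That is 66.7% of the list called in leaf and 88.9% in root, beside 51.2% and 54.5% of all genes. With the day 49/52 controls, the leaf change was above the root change in 1 of 9 Clp genes and below it in none. That is 11.1% called beside 35.7% of all genes. Both tested HSP90 genes were called in leaf, the chloroplast type Jcr4S20271.10 higher (0.94 ± 0.26) and the endoplasmin-like Jcr4S00006.110 lower (-0.92 ± 0.29), and the chloroplast type rose by 1.82 ± 0.26 in root.

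Heat shock factors, the transcription factors that drive chaperone genes, were higher at 10 and lower at 1 of 17 tested in severe leaf. In severe root 5 of 17 were higher and 2 lower. That is 64.7% called in leaf and 41.2% in root, beside 57.1% and 45.1% of all genes. Against the day 13 control 9 were higher and none lower in root. Jcr4S00005.110 rose in both organs, by 3.37 ± 0.33 in leaf and 4.62 ± 0.26 in root, Jcr4S00186.50 by 3.95 ± 0.86 in leaf, and Jcr4S00335.100 averaged 2058 ± 350 CPM in severe root and 17.8 ± 0.801 CPM in control root. The 16 tested genes described as heat shock protein binding gave 2 higher and 2 lower in either organ, 25% called in each, below the share of all genes, and 5 higher and 2 lower in root against the day 13 control. Against the day 49/52 control Jcr4S02330.40 stood at 2.71 ± 0.55 and Jcr4S00103.70 at -1.43 ± 0.41 in leaf, and Jcr4S09905.30 at 4.08 ± 0.75 and Jcr4S00103.70 at -3.68 ± 0.32 in root. The sparsely read Jcr4S09905.30 averaged 1.10 ± 0.557 CPM in severe root and 0.0598 ± 0.0211 CPM in control root. Of 7 further J-domain descriptions 2 were higher and 2 lower in leaf and 1 and 1 in root. That is 57.1% called in leaf and 28.6% in root, beside 57.1% and 45.1% of all genes. The cysteine-rich domain genes Jcr4S02127.50 (1.17 ± 0.28 in leaf, 0.82 ± 0.27 in root) and Jcr4S00082.60 (-0.91 ± 0.18 in leaf, -1.70 ± 0.26 in root) changed in the same direction in both organs.

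**Figure D5:**
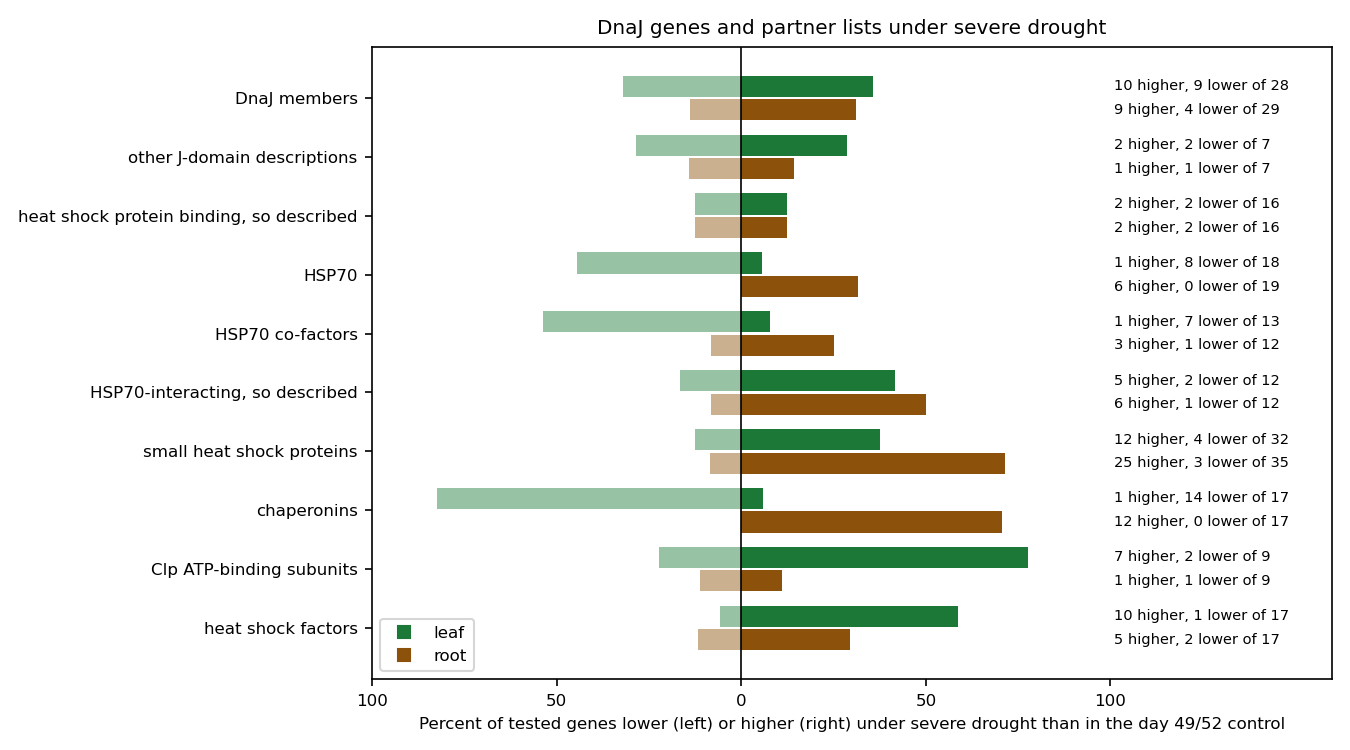
Percent of tested genes of the DnaJ members and 9 partner lists that were higher (right, full colour) or lower (left, pale) in severe drought than in the day 49/52 control, with leaf above root and counts at the right (HSP90, with 2 genes, is not drawn). Chaperonins run to the left in leaf, 14 of 17, and to the right in root, 12 of 17, which is 6 higher and 3 lower against the day 13 root control.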

How the data were processed

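For 22 libraries the authors deposited raw read counts of each gene model and, in a second table, RPKM values. Per the labels' protocols, 400 ng of total RNA went into an unstranded TruSeq v2 preparation and was read as single 50 bp reads. No source used here gives the aligner, counter, genome build or treatment of reads matching several genes. The deposited RPKM have a lowest value of 1.0, as adding 1 would give, and nearly identical sorted columns, as quantile normalization would give; neither step is stated. RPKM were used only to order and describe levels, and no test was run on them. The gene models matched no entry of the reference gene table, so no positions or sequences are given.

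The tests were run in edgeR 4.0.16 under R 4.3.3 (filterByExpr, TMM, robust quasi-likelihood, two-sided), in 1 fit each for leaf (12 libraries), root (10) and all 22, with Benjamini-Hochberg adjustment over all genes tested and calls under 0.05. SE were taken from the F statistic. CPM use TMM-scaled totals of all 22 libraries. The pipeline was also run on simulated counts with the same spread for all genes of an organ, and no result here rests on that run. Alternatives were RLE size factors, DESeq2 1.42.0, no filter, a replicate block, each library left out, and the day 13 control. With 1 library left in a group, that library is assumed to vary like the other groups. Reads carry no molecular identifiers.

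Named members were the 6 called genes with the largest change per direction in severe drought and between watered organs, 3 per direction elsewhere, the 5 highest by RPKM, and those called by severe drought in both organs, with 2 called genes per partner list and organ. Members and lists were chosen with earlier results of these data known, and list patterns were adapted to the deposited spelling.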

Additional observations from a re-analysis of the deposited data

Results flagged for a closer look

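In 11 of 29 tested DnaJ genes the change in severe drought differed between leaf and root by the test of the difference (log2, leaf change minus root change, edgeR). That is 37.9%, beside 35.7% of all genes tested. The chloroplast genes Jcr4S02020.10 and Jcr4S02438.10 differed by 6.94 and 1.89, Jcr4S00367.110 by 2.50 and the DnaJ-related gene Jcr4S00132.170 by 1.42. The subfamily B member 13 homologs Jcr4S00126.130 and Jcr4S00823.60 differed by -3.60 and -1.74. Smaller negative differences belonged to Jcr4S01171.40 (-0.74), Jcr4S01444.70 (-0.73), Jcr4S05115.10 (-0.72), Jcr4S01472.30 (-0.63) and Jcr4S00071.20 (-0.57). The call held under all 12 alternatives in 5 of the 11, Jcr4S02020.10, Jcr4S02438.10, Jcr4S00367.110, Jcr4S00126.130 and Jcr4S00823.60, and under none of them in Jcr4S00071.20.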

How the results depend on the processing

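Of the calls in severe drought, 13 of 19 in leaf and 7 of 13 in root held under every alternative, as did 16 of 18 and 11 of 14 for rewatered against severe, 8 of 16 between watered organs, 5 of 11 for the organ difference and 1 of 5 in watered root. For rewatered against control leaf, members higher numbered 3 with no filter, 1 with DESeq2 and 3 against the day 13 control, and members lower 4, 3 and 2. In moderate root 2 were higher and 1 lower with no filter and with DESeq2. In watered leaf no filter gave 2 higher and 2 lower, DESeq2 1 and 1. For rewatered against control root, 0 were higher with RLE size factors, the replicate block or the day 13 control. For the organ difference 4 were lower with RLE and 2 with no filter. Leaving out 1 library gave 0 to 4 higher and 0 to 3 lower for rewatered against control leaf, 0 to 7 higher and 0 to 1 lower in moderate root, 5 to 7 higher and 2 to 3 lower in severe root, 3 to 5 higher for rewatered against severe root, 0 higher for rewatered against control root, 0 to 1 higher and 0 to 1 lower in watered leaf, 1 to 11 higher and 0 lower in watered root, 5 to 12 higher between organs, and 2 to 7 lower for the organ difference; the causes were not tested. Against the day 13 control Jcr4S02652.10 in rewatered root turned to -0.11. With no filter the median of all genes moved to -0.26 in severe root, 0.31 for the organ difference and 0.12 in watered root. Over all genes, calls numbered 285 with DESeq2, 689 with no filter and 3 with the block in moderate leaf (1 as reported), 2763 with DESeq2, 3558 with no filter and 2411 against the day 13 control in rewatered against control leaf (1059), and 3162 with DESeq2 and 4311 with no filter in moderate root (682). They numbered 6809 with no filter and 10 against the day 13 control in rewatered against control root (4228), and 1548 with DESeq2, 1965 with no filter and 18 with the block in watered leaf (119). Libraries sharing a replicate number did not pair (correlations of -0.385 to 0.316 in leaf and -0.307 to 0.211 in root), and with the replicate block the call of Jcr4S02652.10 in rewatered against control root was lost (1.22, adjusted p = 0.0561). Of 59 results on named genes 58 kept their call under the block. Members with few reads limit the data at the low end, where 3 of the 32 genes could not be tested.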
